A study of Mus musculus with 8 samples.

Results

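Fatty acid synthesis and desaturation were followed through 10 genes, taken by gene symbol: Acly, Acaca and Fasn (synthesis), Scd1, Scd2, Fads1 and Fads2 (desaturation), Elovl5 and Elovl6 (elongation) and Srebf1 (regulation). Each was found by its current symbol or alias in the platform annotation, and the probe set with the highest mean over the 8 arrays stood for the gene. The 10 genes are 10 of 19411 genes on the arrays, and 10 of 10 passed the filter on low values, which left 13587 genes for testing. Only Acaca had a further probe set, whose values are given below.

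The series measured RNA on Affymetrix gene arrays in C57/Bl6 mice, with 1 array per sample and 8 arrays in all. Sperm came from the caudal epididymis, the tail of the duct in which sperm mature and are stored, of males on a control diet (3 arrays), a low protein diet (2 arrays) or a caloric restriction diet (1 array). Epididymal tissue was measured in 1 male group on the control diet and 1 on the low protein diet, with 1 array each. Control and low protein males stayed on their diet until they were 9 to 12 weeks old. The labels give no age for caloric restriction, and no genotype or treatment other than diet is labelled. The composition of the diets, and whether a sample was a single animal or a pool, are not stated in the labels. The spread behind the p-values below is that between arrays and may be technical. The comparisons of a restricted diet with control sperm share the 3 control arrays.

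Cells make fatty acids from citrate. Acly splits citrate to give acetyl-CoA in the cytosol, Acaca carboxylates it to malonyl-CoA, and Fasn joins these units into palmitate. Elovl6 lengthens palmitate, Scd1 and Scd2 put the first double bond into saturated chains, and Fads1, Fads2 and Elovl5 desaturate and lengthen the dietary polyunsaturated fatty acids. Srebf1 encodes SREBP-1, a transcription factor that is known to act on genes of this pathway. Mature sperm transcribe little, so RNA in sperm is largely carried over from the spermatids, and sperm membranes are rich in polyunsaturated fatty acids.

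The sequence just before the start of a pair of these genes is shown because their levels ran opposite ways over the sperm arrays: Fasn was at its lowest on a low protein array and Elovl5 was at its lowest on a control array. Each run holds the 200 bases before the start site, 5′ to 3′ in the direction of the gene, from RefSeq on GRCm38.p6. Capitals mark matches to CCAAT, which shows as ATTGG where it lies on the opposite strand. Capitals also mark CACGTG, an E-box that reads the same on both strands.
Fasn, chr11:120824548-120824747, minus strand: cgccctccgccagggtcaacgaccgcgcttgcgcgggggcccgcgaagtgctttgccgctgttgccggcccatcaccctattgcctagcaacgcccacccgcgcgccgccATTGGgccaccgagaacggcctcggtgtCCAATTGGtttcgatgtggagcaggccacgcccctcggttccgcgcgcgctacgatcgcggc
Elovl5, chr9:77917165-77917364, plus strand: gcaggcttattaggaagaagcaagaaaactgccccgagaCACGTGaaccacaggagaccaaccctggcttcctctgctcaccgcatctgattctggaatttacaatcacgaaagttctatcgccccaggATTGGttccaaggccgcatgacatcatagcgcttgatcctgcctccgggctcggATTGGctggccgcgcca

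Fasn held CCAAT at 90, 62 and 59 bases before its start, and the last pair overlap on opposite strands. Elovl5 held the E-box at 161 bases and CCAAT at 71 and 17 bases before its start. Among all 32851 promoter windows, searched over 250 bases before the start on both strands, 33.8% held CCAAT and 6.02% held CACGTG. The letters TCACNCCAC, a form of the sterol regulatory element, occurred in 1.05% of all windows and in 0 of the 9 windows of the 7 genes that have one (Fasn, Acaca, Acly, Fads2, Elovl5, Elovl6 and Srebf1). GGGCGG, the GC box, occurred in 32.7% of all windows. Acly held it at 117, 88, 76 and 27 bases before its start, and Fads2 at 186. Windows of Srebf1 held it at 65 and 6 bases and at 36 and 14 bases, and held CCAAT at 30 and at 166 bases. These matches describe letters only.

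Low protein sperm replicate 2 stood apart from the other sperm arrays. Its correlation with them over tested genes ran from 0.71 to 0.86, and the other pairs of sperm arrays correlated at 0.85 to 0.98. All 16 listed markers of late spermatids and sperm were higher in sperm than in epididymis, with Prm1, a protamine that packs sperm DNA, at 9.88 to 11.44 in sperm and at 6.57 and 6.78 in epididymis (log2). The labels state that sperm preparations were over 99.5% pure by microscopy and that preparations with detectable Actb or Myh11 had been rejected by PCR. On the sperm arrays Actb read 10.49 to 11.61 and Myh11, a smooth muscle myosin, 7.09 to 8.13, against 12.50 to 12.67 and 11.77 to 11.79 in epididymis. In such bulk samples fewer cells of a type and less RNA per cell cannot be told apart.

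In array signal, most of the 10 genes read lower in sperm than in epididymal tissue. Of the 10 genes, 8 were lower in sperm (Acly, Scd1, Scd2, Fads1, Fads2, Elovl5, Elovl6 and Srebf1) and none was higher, at an adjusted p under 0.05 in limma with tissue and diet as additive terms. Over all genes tested, 48.5% were called in either direction and 30.1% were called lower in sperm. The median difference of the 10 genes was -1.37 on the log2 scale, beside -0.08 over all genes. In this fit 5 sperm and 2 epididymis arrays set the tissue difference, since caloric restriction had a diet term of its own. The median difference of the 10 genes moved to -0.93 under quantile normalization and to -0.87 under cyclic loess. That median was -1.88 without the control epididymis array, where only low protein arrays set the tissue difference. It was -1.05 without the low protein epididymis array, where only control arrays set that difference.

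The desaturases and Elovl6 had the largest differences between the tissues. Scd2 fell by 2.30 ± 0.40 (SE; adjusted p 0.00196 in limma), and its lowest epididymis array, at 11.53, lay above its highest sperm array, at 10.17. Fads2 fell by 1.73 ± 0.41 (adjusted p 0.00885), Scd1 fell by 1.67 ± 0.40 (adjusted p 0.00925) and Fads1 fell by 1.62 ± 0.25 (adjusted p 0.00118). Elovl6 fell by 1.47 ± 0.30 (adjusted p 0.00424). The sperm and epididymis arrays did not overlap for these 5 genes, nor for Acly, Elovl5 and Srebf1. The share of all genes without such overlap was not computed.

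The other genes had smaller fitted differences, and the genes were not tested against each other. Acly fell by 1.27 ± 0.42 (adjusted p 0.0328 in limma) and Srebf1 fell by 0.84 ± 0.23 (adjusted p 0.0177). Fasn differed by -0.85 ± 0.36 (adjusted p 0.0767, 95% interval -1.66 to -0.04) and Acaca by -0.57 ± 0.28 (adjusted p 0.12, 95% interval -1.21 to 0.07), and neither passed the test. For both genes control sperm replicate 3 reached the level of epididymis. Elovl5 fell by 0.66 ± 0.20 (adjusted p 0.025), but this call was lost under quantile normalization (-0.20), under cyclic loess (-0.16), without the control epididymis array (-0.22) and without any 1 of the control sperm arrays.

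Of the 8 calls, 5 remained under quantile normalization (without Acly, Elovl5 and Srebf1) and 6 under cyclic loess (without Elovl5 and Srebf1). Without the low protein epididymis array 3 remained, Scd2, Fads1 and Elovl5, and calls over all genes went from 6594 to 2748. Among the calls over all genes 37.9% were higher in sperm, against 47.1% with quantile normalization and 50.8% with cyclic loess, which also moved the median of all genes from -0.08 to 0.05.

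**Figure D1:**
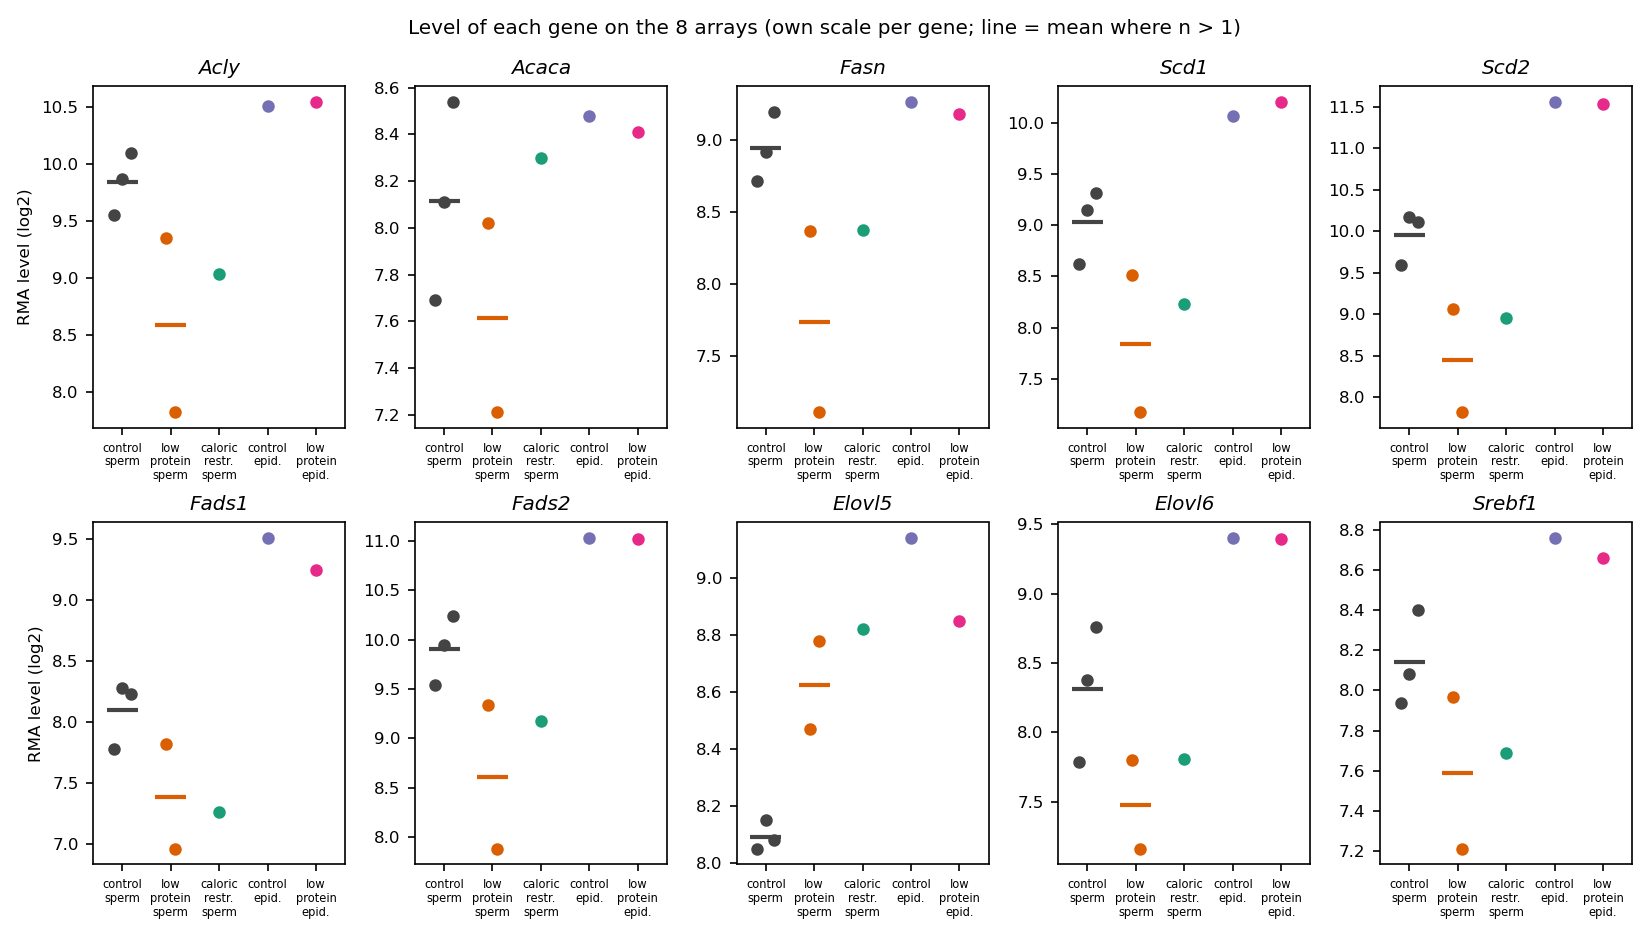
RMA level (log2) of each of the 10 genes on the 8 arrays, 1 point per array and 1 panel per gene with its own axis, grouped by tissue and diet, where a line marks the mean of a group with more than 1 array. Low protein sperm replicate 2 is the lowest sperm array for 9 of 10 genes, and for Elovl5 the 3 control arrays lie lowest.

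Between low protein and control sperm, 9 of 10 genes had lower means on low protein and Elovl5 had a higher one, but 0 of 10 passed the adjusted test in limma. Over all genes 0 were called (0%), although 3406 genes had an unadjusted p under 0.05. At that unadjusted level 7 of the 10 genes were lower, beside 13.1% of all genes (1784 of those 3406), and 1 was higher (Elovl5). The median difference of the 10 genes was -1.01 on the log2 scale, beside -0.06 over all genes. Both low protein arrays lay below all 3 controls for 5 genes (22.4% of all genes) and above all 3 for 1 gene (18.8%).

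Acly, which feeds acetyl-CoA into the pathway, read 9.55, 9.87 and 10.10 on control sperm replicates 1 to 3, 9.35 and 7.82 on low protein sperm, 9.04 on caloric restriction sperm, and 10.51 and 10.55 on control and low protein epididymis. The restricted sperm arrays were all below the controls, and low protein replicate 2 was far below replicate 1. The low protein mean differed from the control mean by -1.25 ± 0.40 (adjusted p 0.143 in limma).

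Acaca, which makes the malonyl-CoA that chains grow from, read 7.69, 8.11 and 8.54 on control sperm, 8.02 and 7.21 on low protein sperm, 8.30 on caloric restriction sperm, and 8.48 and 8.41 on control and low protein epididymis. The groups overlapped, and the low protein mean differed by -0.50 ± 0.31 (adjusted p 0.343 in limma). Its other probe set gave a difference of -0.29, and there both low protein arrays (at most 7.35) were below the controls (at least 7.48). The probe sets therefore disagreed on whether the groups overlap.

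Fasn, the synthase that completes palmitate, read 8.72, 8.92 and 9.20 on control sperm, 8.37 and 7.11 on low protein sperm, 8.38 on caloric restriction sperm, and 9.27 and 9.18 on control and low protein epididymis. All 3 restricted arrays were below the controls. Low protein differed from control by -1.21 ± 0.34 (adjusted p 0.124 in limma).

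Scd2, a stearoyl-CoA desaturase, had the largest difference of the 10 genes. It read 9.59, 10.17 and 10.11 on control sperm, 9.07 and 7.82 on low protein sperm, 8.96 on caloric restriction sperm, and 11.56 and 11.53 on control and low protein epididymis. Every restricted array was below every control, and low protein differed by -1.51 ± 0.36 (adjusted p 0.088 in limma, 95% interval -2.33 to -0.69). Among the normalizations tried it passed under cyclic loess alone, at -1.09.

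Scd1, the other stearoyl-CoA desaturase, read 8.62, 9.15 and 9.32 on control sperm, 8.51 and 7.17 on low protein sperm, 8.23 on caloric restriction sperm, and 10.07 and 10.21 on control and low protein epididymis. The first low protein array lay just under the lowest control and the other lay well under it. The difference was -1.19 ± 0.38 (adjusted p 0.143 in limma). The Scd genes are close paralogs, so part of the signal of one could come from another. Scd3 read 5.63 to 6.35 on the sperm arrays, with its highest value on low protein replicate 2, and Scd4 did not pass the filter.

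Fads2, the first desaturase on the path from dietary to long polyunsaturated fatty acids, read 9.54, 9.95 and 10.24 on control sperm, 9.34 and 7.88 on low protein sperm, 9.18 on caloric restriction sperm, and 11.03 and 11.02 on control and low protein epididymis. The restricted arrays were all below the controls, and low protein differed by -1.30 ± 0.40 (adjusted p 0.137 in limma). Fads1, the next desaturase on that path, read 7.78, 8.28 and 8.23 on control sperm, 7.82 and 6.96 on low protein sperm, 7.26 on caloric restriction sperm, and 9.51 and 9.25 on control and low protein epididymis. Low protein replicate 1 lay within the control range of Fads1, and the difference was -0.71 ± 0.28 (adjusted p 0.178 in limma).

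Elovl6, which lengthens palmitate to stearate, read 7.79, 8.38 and 8.76 on control sperm, 7.80 and 7.16 on low protein sperm, 7.81 on caloric restriction sperm, and 9.40 and 9.39 on control and low protein epididymis. Low protein replicate 1, caloric restriction and control replicate 1 were nearly level, so the groups overlapped. Low protein differed by -0.83 ± 0.31 (adjusted p 0.166 in limma).

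Elovl5, which lengthens polyunsaturated chains, was the exception among the 10. It read 8.05, 8.15 and 8.08 on control sperm, 8.47 and 8.78 on low protein sperm, 8.82 on caloric restriction sperm, and 9.14 and 8.85 on control and low protein epididymis. The 3 controls spanned 0.11, and every restricted array lay above them. Low protein differed from control by 0.53 ± 0.17 (adjusted p 0.141 in limma, 95% interval 0.14 to 0.92).

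Srebf1, the regulator, read 7.94, 8.08 and 8.40 on control sperm, 7.97 and 7.21 on low protein sperm, 7.69 on caloric restriction sperm, and 8.76 and 8.66 on control and low protein epididymis. Low protein replicate 1 lay within the controls and the groups overlapped. The difference was -0.55 ± 0.25 (adjusted p 0.219 in limma).

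Much of the low protein difference rested on 1 array. Low protein replicate 2 was the lowest of the 6 sperm arrays for 9 of the 10 genes, as it was for 34.0% of all genes, and it lay below all controls for those 9. Replicate 1 lay below all controls for 5. For either replicate the share of all genes below all controls was not computed. The single caloric restriction array lay below all controls for 45.8% of all genes. Without replicate 2 the median difference of the 10 genes was -0.50 and 0 of 10 passed the adjusted test. Without replicate 1 the median was -1.49 and 10 of 10 passed, with 5155 genes called, in a fit that assumes that the lone array varies like the other groups.

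**Figure D2:**
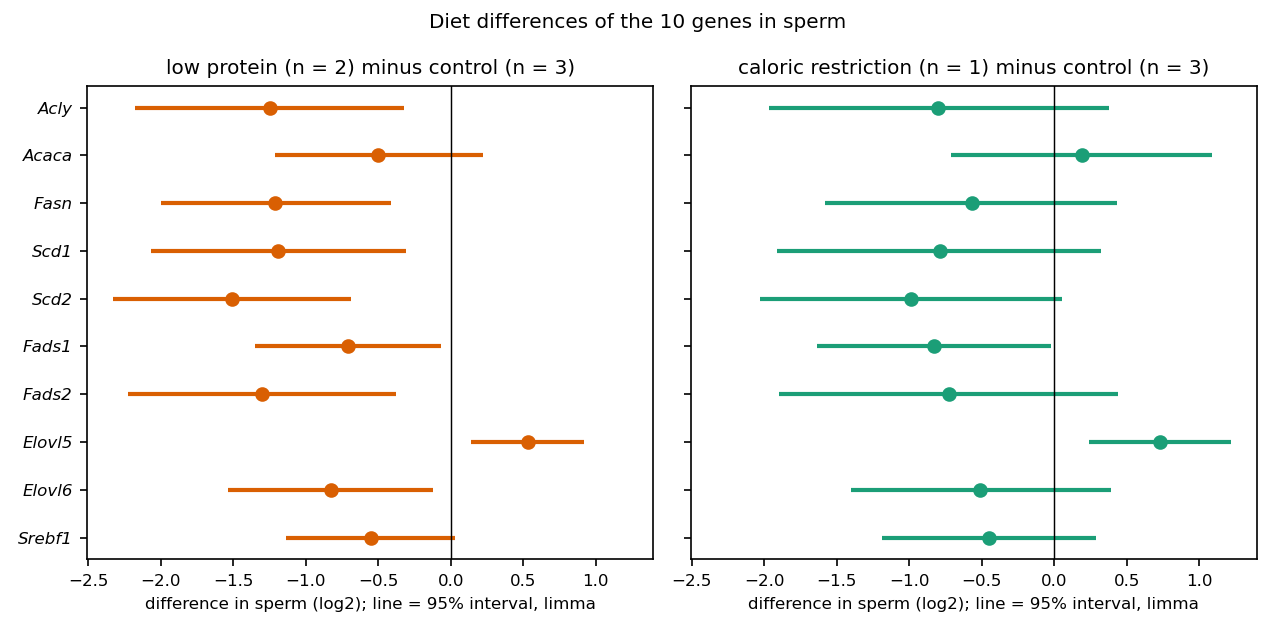
Difference from control sperm (log2) of each of the 10 genes, for low protein (left, 2 against 3 arrays) and caloric restriction (right, 1 against 3 arrays), as points with 95% intervals from limma. On the left 9 genes lie below 0 and Elovl5 lies at 0.53; on the right Elovl5 (0.73) and Acaca (0.19) lie above 0.

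Caloric restriction sperm, a single array assumed in the fit to vary like the other sperm groups, read low for the desaturases and high for Elovl5 beside the shared controls. None of the 10 genes passed the adjusted test in limma, while 5.56% of all genes did. Of those calls over all genes 751 were higher and 5 lower on caloric restriction. At an unadjusted p under 0.05 Fads1 was lower, as were 4.17% of all genes (567 of the 2255 genes at that level), and Elovl5 was higher. The array lay below all controls for 7 genes, beside 45.8% of all genes. It lay above them for Elovl5, a direction whose share of all genes was not computed. The median difference was -0.65, beside -0.11 over all genes.

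Among the desaturases, caloric restriction differed from control by -0.99 ± 0.45 for Scd2 (adjusted p 0.322 in limma), by -0.83 ± 0.35 for Fads1 (adjusted p 0.288), by -0.79 ± 0.48 for Scd1 and by -0.73 ± 0.51 for Fads2. Elovl5 differed by 0.73 ± 0.21 (adjusted p 0.111, 95% interval 0.24 to 1.22). Acly differed by -0.80 ± 0.51, Fasn by -0.57 ± 0.44, Elovl6 by -0.51 ± 0.39 and Srebf1 by -0.45 ± 0.32. Acaca differed by 0.19 ± 0.39, and its sign changed with the control arrays used, from -0.02 without replicate 1 to 0.41 without replicate 3. Without low protein replicate 1, and also without replicate 2, 5 genes passed (Acly, Scd1, Scd2, Fads1 and Elovl5), while calls over all genes went from 756 to 2021 in either setting. The low protein arrays enter this comparison only through the estimate of the spread.

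With low protein and caloric restriction taken as 1 restricted group of 3 arrays, 0 of 10 genes passed the adjusted test in limma, beside 2.75% of all genes (369 higher and 4 lower). At an unadjusted p under 0.05 there were 8 lower genes (14.0% of all genes, 1897 of the 3592 at that level) and 1 higher. The median difference was -0.87, beside -0.07 over all genes. All 3 restricted arrays lay below all 3 controls for Fasn, Acly, Scd1, Scd2 and Fads2, 5 genes in all (18.1% of all genes), and above them for Elovl5 alone (15.0%).

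Scd2 and Elovl5 came nearest to the threshold in this grouping. Scd2 differed by -1.34 ± 0.32 (adjusted p 0.0605 in limma) and Elovl5 by 0.60 ± 0.16 (adjusted p 0.0783). Scd2 passed without low protein replicate 2, at -0.94, and under quantile normalization. Under cyclic loess both genes passed, Elovl5 at 0.88. Without low protein replicate 1 there were 5 calls among the 10 genes. Calls over all genes went from 373 to 1428 without replicate 1 and to 654 without replicate 2. Acaca stood at -0.27 ± 0.30 with all arrays and at 0.05 without low protein replicate 2.

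Low protein and caloric restriction sperm were also set against each other. None of the 10 genes passed (0% of all genes were called; 1316 genes and none of the 10 had an unadjusted p under 0.05), with adjusted p from 0.653 to 0.945 in limma. The median difference was -0.42 (low protein minus caloric restriction), and it was 0.13 without low protein replicate 2 and -1.08 without replicate 1, where 6 of the 10 genes and 1956 of all genes passed. Elovl5 differed by -0.20 (95% interval -0.72 to 0.33) and Fads1 by 0.13 (-0.73 to 0.99).

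In epididymal tissue the 10 genes were near level between the diets. Low protein minus control, 1 array each and so without a test or replicate check, ran from -0.29 for Elovl5 to 0.13 for Scd1, with a median of -0.05 and 8 genes below 0. The SD of this difference over all genes was 0.19. The diet difference in sperm minus that in epididymis was fitted over the 8 arrays. With 1 epididymis array per diet, its spread came from the control and low protein sperm arrays alone, and epididymis was assumed to vary like sperm. In that fit 0 of 10 genes passed in limma (0% of all genes; 610 genes at an unadjusted p under 0.05), and the smallest adjusted p among the 10 was 0.875. Elovl5 differed by 0.82, from 0.53 in sperm and -0.29 in epididymis, and it alone among the 10 had an unadjusted p under 0.05 under that assumption. Without low protein sperm replicate 1, 6 of the 10 genes passed, and so did 1639 of all 13587 genes.

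Over the 6 sperm arrays the summed signal of the 10 genes moved with that of epithelial markers, while Elovl5 ran the other way. Signal was summed on the linear scale and is given as a percentage of the mean of the epididymis arrays. The 10 genes summed to 38.9%, 51.4% and 58.2% on control replicates 1 to 3, 35.3% and 18.1% on low protein and 33% on caloric restriction. Of 26 epithelial markers on the array 17 passed the filter, and the 26 summed to 43.7%, 58% and 55.4% on control, 38.4% and 18.8% on low protein, and 35.4% on caloric restriction. The array with the least signal of the 10 genes was thus also the one with the least epithelial signal.

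The 10 smooth muscle markers ranged from 12% to 14.2% on control and from 7.18% to 11.1% on the restricted diets. The 8 fibroblast and matrix markers ranged from 42.1% to 55% and from 31.5% to 49.6%. The 7 endothelial markers ranged from 57.3% to 65% and from 52.1% to 73.9%, and the 9 leukocyte markers from 78.6% to 153% and from 137% to 170%. Muscle markers were therefore lower on every restricted array, while the matrix, endothelial and leukocyte ranges overlapped.

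The 16 late spermatid markers ran the other way, at 919%, 805% and 678% on control, 1070% and 1350% on low protein, and 1110% on caloric restriction. The order of the 6 arrays from most to least signal of the 10 genes was the order from least to most late spermatid signal, and the epithelial order differed from it by an exchange of control replicates 2 and 3. Elovl5 alone stood at 51.8%, 55.8% and 53.1% on control, 69.4% and 86.4% on low protein and 88.7% on caloric restriction. For Elovl5 and for the spermatid markers every restricted array thus lay above every control. Within the controls and within the restricted arrays the 2 orders differed. The part of these cell types in the diet differences was not tested.

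Fat around the duct is a further tissue that uses these genes. Of 9 adipocyte markers on the array 5 passed the filter, and Adipoq, the adipocyte hormone adiponectin, read 3.55 to 4.25 on the 8 arrays, under the filter level of 5.69. The summed adipocyte signal was 131% to 162% of epididymis on control and 173% to 221% on the restricted arrays. The median adipocyte marker did not separate them, at 86.3% to 136% on control and 100% to 117% on the restricted arrays. Lipe, which is among these markers, is a lipase that is also active in male germ cells. It read 8.24 to 8.45 on control sperm, 9.00 to 9.35 on the restricted sperm arrays and 7.08 to 7.10 in epididymis.

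**Figure D3:**
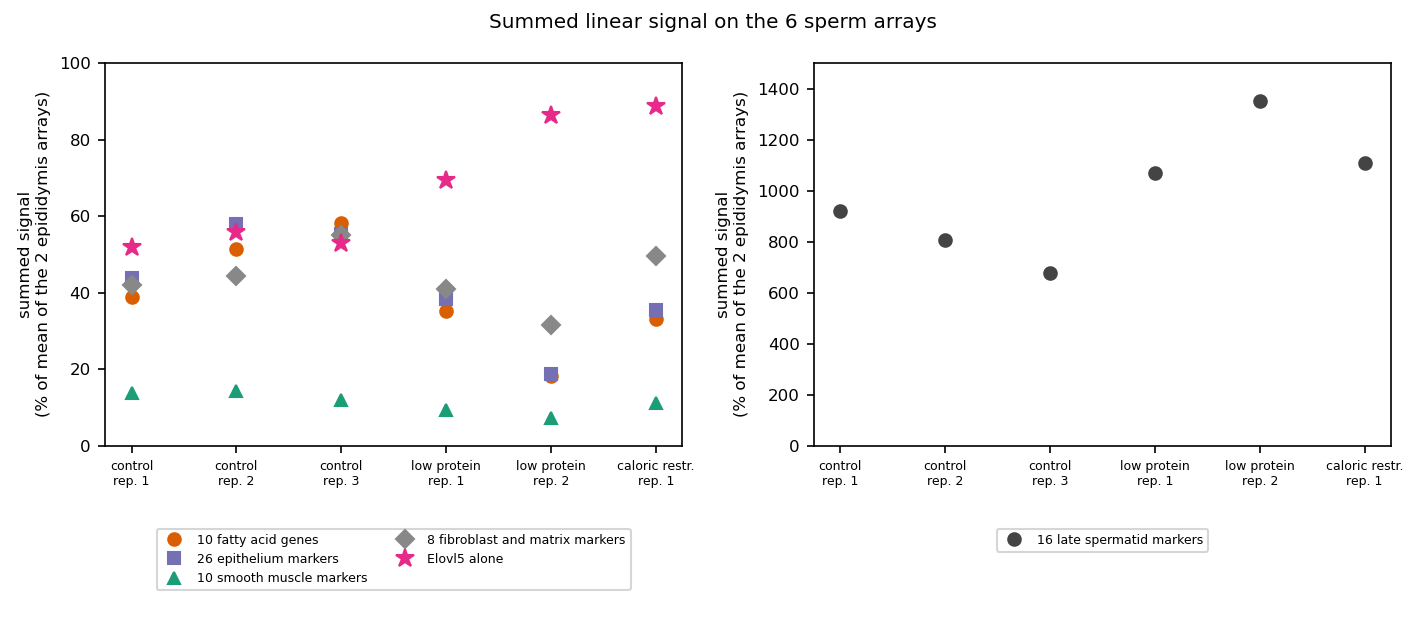
Summed linear signal of gene groups on the 6 sperm arrays, as a percentage of the mean of the 2 epididymis arrays; left, the 10 fatty acid genes, Elovl5 alone, and markers of epithelium, smooth muscle and fibroblast and matrix; right, late spermatid markers, on their own axis. The 10 genes stand at 18.1% on low protein replicate 2, where the late spermatid markers reach 1350%.

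As a description of these 6 arrays, each gene was correlated with the mean of the other 9. Pearson's r was 1.00 for Scd1 and Fads2, 0.99 for Acly, 0.98 for Fasn, 0.97 for Scd2 and Srebf1, 0.95 for Elovl6, 0.92 for Fads1 and 0.82 for Acaca. Elovl5 had an r of -0.79. The 6 arrays are shared by all these values, and low protein replicate 2 lies 0.97 below the sperm mean of the 10 genes (log2), where the others lie between -0.11 and 0.62.

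The 5 other genes most like the mean of the 10 over the sperm arrays were Cdcp1, a membrane protein of epithelia, Gart and Cad, enzymes of purine and pyrimidine synthesis, Dicer1, which cuts small RNAs, and Fkbp15. Each had an r of 0.999. On this measure 219 genes exceeded 0.99, and the median over all genes was 0.03.

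Other lipid genes were counted in 9 lists of 109 genes, of which 92 were tested. Between sperm and epididymis 57 were lower in sperm and 10 higher by limma, beside 30.1% of all genes called lower and 48.5% in either direction. Between low protein and control sperm 0 of 92 passed (0% of all genes), with 71 lower means. Between caloric restriction and control sperm 2 passed, both higher, beside 5.56% of all genes. The median differences were -0.81, -0.30 and -0.29, where those of all genes were -0.08, -0.06 and -0.11.

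Among the sources and regulators of the pathway, 8 of 13 regulators fell in sperm against epididymis and 1 rose. Insig1 and Insig2, which hold the SREBP proteins in the endoplasmic reticulum, differed by -1.40 and -1.12. Of 8 genes of acetyl-CoA and NADPH supply 5 fell, among them the cytosolic dehydrogenases Idh1 (-1.80) and Mdh1 (-1.44), and 1 rose. Of 6 other fatty acid synthesis genes 2 fell, Aasdhppt (-1.20) and the mitochondrial Oxsm (-0.58), which is near the 30.1% of all genes called lower.

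Of 8 other elongation genes 7 fell and 1 rose. Hacd2, a dehydratase of the elongation cycle, fell by 2.97 and Hsd17b12, a reductase of that cycle, fell by 2.06. Of 8 other desaturation genes 3 fell, near the 30.1% of all genes called lower. Among them were Degs1, a ceramide desaturase (-2.18), and Cyb5r3, which supplies electrons to desaturases (-1.50). Of 17 cholesterol synthesis genes 14 fell and 1 rose. The sterol enzymes Msmo1 and Sc5d differed by -2.36 and -1.92. Of 18 oxidation genes 13 fell, among them Hadh (-1.42) and Acadm (-1.40), and 1 rose.

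Acyl-CoA activation and triglyceride synthesis were mixed. Of 5 activation genes 2 rose and 3 fell: Acsbg2, an acyl-CoA synthetase of the testis, rose by 3.12 and Acsl4 fell by 2.06. Of 9 triglyceride genes 3 rose and 2 fell, where 30.1% of all genes were called lower. Lpin1, a phosphatidate phosphatase, rose by 3.19 and Gpam, the first acyltransferase, fell by 1.17, a call lost under quantile normalization and without the low protein epididymis array. Quantile normalization gave 4 rises and 0 falls in that list, and cyclic loess gave 5 and 2.

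The 2 lipid genes that passed between caloric restriction and control were Etfb, an electron carrier of fatty acid oxidation, and Acsbg2. Etfb read 7.54, 7.56 and 7.42 on control sperm and 8.80 on caloric restriction sperm, a difference of 1.30 ± 0.20 (adjusted p 0.00836 in limma). Acsbg2 read 8.51, 8.36 and 8.34 on control sperm and 9.54 on caloric restriction sperm, a difference of 1.14 ± 0.23 (adjusted p 0.0285). The Etfb call was lost without control replicate 2 or 3, and the Acsbg2 call without any 1 control array, under quantile normalization and with an intensity trend in eBayes. With all restricted arrays as 1 group Acsbg2 (1.09 ± 0.17, adjusted p 0.0411) and Lpin1 (0.89 ± 0.18, adjusted p 0.0427) passed, as did 4 of the 16 late spermatid markers. All of these calls were lost without any 1 control array and without the caloric restriction array, settings in which 0 of all genes were called.

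**Figure D4:**
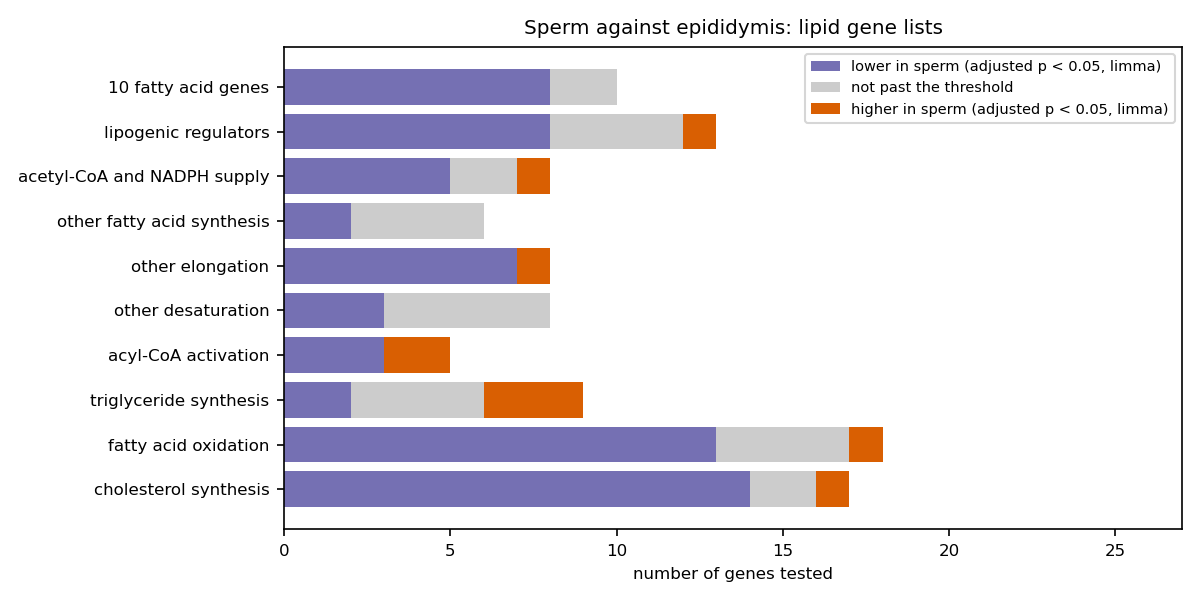
Number of genes tested in the 10 fatty acid genes and in each of 9 lipid gene lists, split by whether they were lower in sperm than in epididymis, higher, or not past an adjusted p of 0.05 in limma. Lower calls outnumber higher calls in 8 of the 9 lists, and the triglyceride list has 3 higher and 2 lower. Over all genes tested 4093 were called lower and 2501 higher.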

How the data were processed

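The deposited values are log2 levels, 1 per probe set and array, made by the authors with RMA, per the submitters' processing notes. The version of RMA and the build behind the annotation were not given in the sources used here. As usually run, RMA brings arrays to a common scale, on which a change in total RNA would not show. No probe set's level was compared with another's. The 10 genes and all lists were chosen with earlier results of these data known.

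Of 33660 probe sets, 21222 carried 1 gene, 1541 several and 10897 are unnamed here. Gene identifiers gave current GRCm38.p6 symbols for 21137, and 85 kept the platform's. Of 19411 genes, the lowest 30% by mean (log2 5.69 and below) were left out. No 2 arrays were identical, and array medians ran from 6.08 to 6.17. The number of arrays limits the precision.

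Tests used limma 3.58.1 in R 4.3.3 (lmFit, eBayes, two-sided), with Benjamini-Hochberg adjustment over 13587 genes at 0.05. Errors are moderated standard errors. Sperm diets were fitted over 6 sperm arrays and tissues over 8 arrays. The fits were run on simulated data with independent noise per gene and no shift shared over an array. That simulation therefore does not show how the fits handle an array such as low protein replicate 2. Named were the 10 genes, the 2 largest called changes of each lipid list per comparison, the 5 most alike genes, Actb and Myh11. Scd3, Scd4, Fads3, Elovl2, Prm1, Adipoq and Lipe were named after their values were seen. Alternatives were median centring, quantile normalization, cyclic loess, other filters, means of probe sets, trended or robust eBayes, another threshold and leaving out each array.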

Additional observations from a re-analysis of the deposited data

How the results depend on the processing

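Depth on arrays is signal over background, and all 10 genes passed the filter. Leaving out low protein replicate 1 or the low protein epididymis array moved the calls most among the alternatives, and the cause was not tested. Without the low protein epididymis array, the tissue difference was set by control diet arrays alone. Where a group kept 1 array, its spread was taken from the others. No paired analysis was possible because the labels give letters and no shared replicate numbers. The lipid genes outside the 10 were run through these alternatives by a choice made after seeing the data.

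Leaving out 1 array at a time gave, for the 10 genes, 0 to 10 calls between low protein and control sperm, 0 to 5 for caloric restriction, 0 to 6 between low protein and caloric restriction, 0 to 5 for the restricted diets together, 3 to 9 between sperm and epididymis and 0 to 6 for the difference between tissues. Over all genes the same comparisons gave 0 to 5155, 298 to 2021, 0 to 1956, 0 to 1428, 2748 to 7236 and 0 to 1639 calls.

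Signs turned with 1 array left out as follows. Acaca ran from -0.02 to 0.41 for caloric restriction and from -0.50 to 0.05 for the restricted diets. Between low protein and caloric restriction the median of the 10 genes ran from -1.08 to 0.13, Acly from -1.22 to 0.31, Scd1 from -1.07 to 0.28, Scd2 from -1.14 to 0.11, Fads1 from -0.30 to 0.55, Fads2 from -1.30 to 0.16 and Srebf1 from -0.48 to 0.28.

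Cyclic loess gave 1 of the 10 genes and 237 genes for low protein, 2 and 589 for the restricted diets, and 135 genes between low protein and caloric restriction, where Srebf1 turned to 0.03. Quantile normalization gave 1 of the 10 for the restricted diets and 5 between the tissues, and between low protein and caloric restriction turned Elovl5 to 0.06 and Srebf1 to 0.06. At an adjusted p under 0.10 there were 1 of the 10 genes and 592 genes for low protein, 2 and 1091 for the restricted diets, and 131 genes between low protein and caloric restriction. A trend in eBayes gave 23 genes for that last comparison and 168 for the restricted diets, and the 50% filter gave 197 for the restricted diets.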

Other observations

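Among the other elongases and desaturases on the array, Elovl2, which lengthens the longest polyunsaturated fatty acids and is known to be needed for male fertility in mice, was the elongation gene that was higher in sperm. It read 6.37, 6.10 and 6.02 on control sperm replicates 1 to 3, 6.84 and 7.32 on low protein sperm, 6.84 on caloric restriction sperm, and 5.37 and 5.34 on control and low protein epididymis (log2). Every restricted sperm array lay above every control array. Sperm exceeded epididymis by 1.24 ± 0.24 (SE; adjusted p 0.00323 in limma). Low protein exceeded control sperm by 0.91 ± 0.20, which did not pass the test (adjusted p 0.086).

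Fads3, a desaturase next to Fads1 and Fads2 in sequence, read 8.58, 8.98 and 9.42 on control sperm, 8.54 and 7.43 on low protein sperm, 8.22 on caloric restriction sperm, and 9.43 and 9.28 on control and low protein epididymis. The 3 restricted arrays were all below the controls. Low protein differed from control sperm by -1.01 ± 0.35 (adjusted p 0.158 in limma) and sperm from epididymis by -0.84 ± 0.34 (adjusted p 0.069), so neither difference passed. Elovl1, an elongase of saturated chains, read 7.05 to 7.55 on control sperm, 6.40 and 6.83 on low protein sperm, 7.01 on caloric restriction sperm, and 8.26 and 8.43 in epididymis. Acacb, the mitochondrial relative of Acaca, read 6.21 to 6.53 on all 8 arrays.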
